A study of Mus musculus with 7 samples.

Results

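Perineuronal nets are lattices of extracellular matrix that enclose the cell body and proximal dendrites of certain neurons, above all the fast-spiking interneurons that contain parvalbumin. Their scaffold is hyaluronan, a sugar chain extruded from the neuron's surface. Lecticans, chondroitin sulfate proteoglycans with a hyaluronan-binding head and a lectin-like tail, attach to it, link proteins of the Hapln family lock each lectican head onto the chain, and tenascins bridge the lectican tails. The 10 genes described here are the lecticans Acan (aggrecan), Bcan (brevican), Ncan (neurocan) and Vcan (versican), the link proteins Hapln1, Hapln2 and Hapln4, the tenascins Tnr and Tnc, and Ptprz1, a receptor tyrosine phosphatase whose secreted form is the proteoglycan phosphacan. They were taken by name from a table of 25467 genes. All 10 were in the table, and all 10 were among the 17211 genes that passed the filter on low counts.

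The table holds RNA sequencing counts from the medial prefrontal cortex (mPFC) of mice. By their treatment label, 4 libraries are from mice that received rhTSP1 (TSP1) and 3 from mice that received PBS, the usual short name of phosphate-buffered saline. Each library is taken here as a mouse of its own. The name rhTSP1 is commonly that of recombinant human thrombospondin-1, a matrix glycoprotein that astrocytes secrete and that helps excitatory synapses to form. The sources used here do not give strain, genotype, sex, age, dose, route or time of dissection. The libraries carry the numbers 1 to 4 (TSP1) and 8, 11 and 12 (PBS), so that an effect of whatever these numbers record and an effect of treatment cannot be told apart.

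Library totals ran between 15090336 and 20755167 counts. All 14 pan-neuronal marker genes were detected in every library, with summed levels of 11540 to 13700 CPM (counts scaled by library size) with TSP1 and 12610 to 13770 CPM with PBS. TSP1 replicate 4 stood apart from the other libraries in 2 marker lists. It had a mean of 15 striatal projection neuron markers 1.19 log2 units above the average of the 7 libraries, where the other 6 lay between -0.25 and -0.16, and its mean of 17 myelin and oligodendrocyte markers was 0.84 above, against -0.54 to 0.33 in the other 6. The summed myelin markers ran from 3371 to 9150 CPM with TSP1 and from 5029 to 6326 CPM with PBS. Marker means of 4 other cell classes did not overlap between the groups and were lower with TSP1. The astrocyte means were -0.24 to 0.04 with TSP1 and 0.09 to 0.17 with PBS, the oligodendrocyte precursor means -0.12 to 0.04 with TSP1 and 0.05 to 0.11 with PBS, the microglia means -0.34 to 0.01 with TSP1 and 0.09 to 0.28 with PBS, and the endothelial means -0.32 to 0.00 with TSP1 and 0.04 to 0.24 with PBS. Fitted values were below 0 for 15 of 16 astrocyte, 10 of 13 precursor, 16 of 16 microglia and 13 of 14 endothelial markers, where 48.9% of all genes were. They were above 0 for 15 of 15 striatal markers. The striatal median was 0.51 with all libraries and -0.0008 with TSP1 replicate 4 left out. Genes of a list measured in the same 7 libraries are not independent, so these counts carry no test. Summed levels ran from 7057 to 8671 CPM with TSP1 and 8189 to 9355 CPM with PBS for astrocytes, and from 512.3 to 604.7 CPM with TSP1 and 574.4 to 617.9 CPM with PBS for precursors. For microglia they ran from 582.7 to 740 CPM with TSP1 and 768.5 to 898 CPM with PBS, and for endothelial cells from 396.4 to 501 CPM with TSP1 and 513.8 to 602.7 CPM with PBS. No gene of these lists was at 0 in any library. In tissue RNA, fewer cells of a type and less RNA per cell cannot be told apart.

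Each lectican gene lies beside a link protein gene, with no other protein-coding gene between them in GENCODE M21 (GRCm38). Acan (chromosome 7, 79053483 to 79115099, forward strand) ends 2 bases before Hapln3, a link protein gene outside the 10. Bcan (chromosome 3, 87987531 to 88000230, reverse strand) and Hapln2 (chromosome 3, 88021750 to 88027583, reverse strand) are 21.5 kb apart and read in the same direction. Ncan (chromosome 8, 70093085 to 70120873, reverse strand) and Hapln4 (chromosome 8, 70083457 to 70090862, forward strand) are 2.2 kb apart with their 3′ ends facing each other. Vcan (chromosome 13, 89655312 to 89742509, reverse strand) and Hapln1 (chromosome 13, 89539796 to 89611652, forward strand) also face each other with their 3′ ends, 43.7 kb apart. The other members stand alone: Tnr on chromosome 1 (159523769 to 159931729, forward strand), Tnc on chromosome 4 (63959785 to 64047015, reverse strand) and Ptprz1 on chromosome 6 (22875502 to 23052916, forward strand). The sources used here do not say whether counting used strand, and 2 members share exon sequence with a noncoding gene on the opposite strand. Tnc shares it with 8030451A03Rik, which has 10 counts over the 7 libraries against 566 for Tnc, and Tnr with Gm38039, which is not a row of the table.

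**Figure D1:**
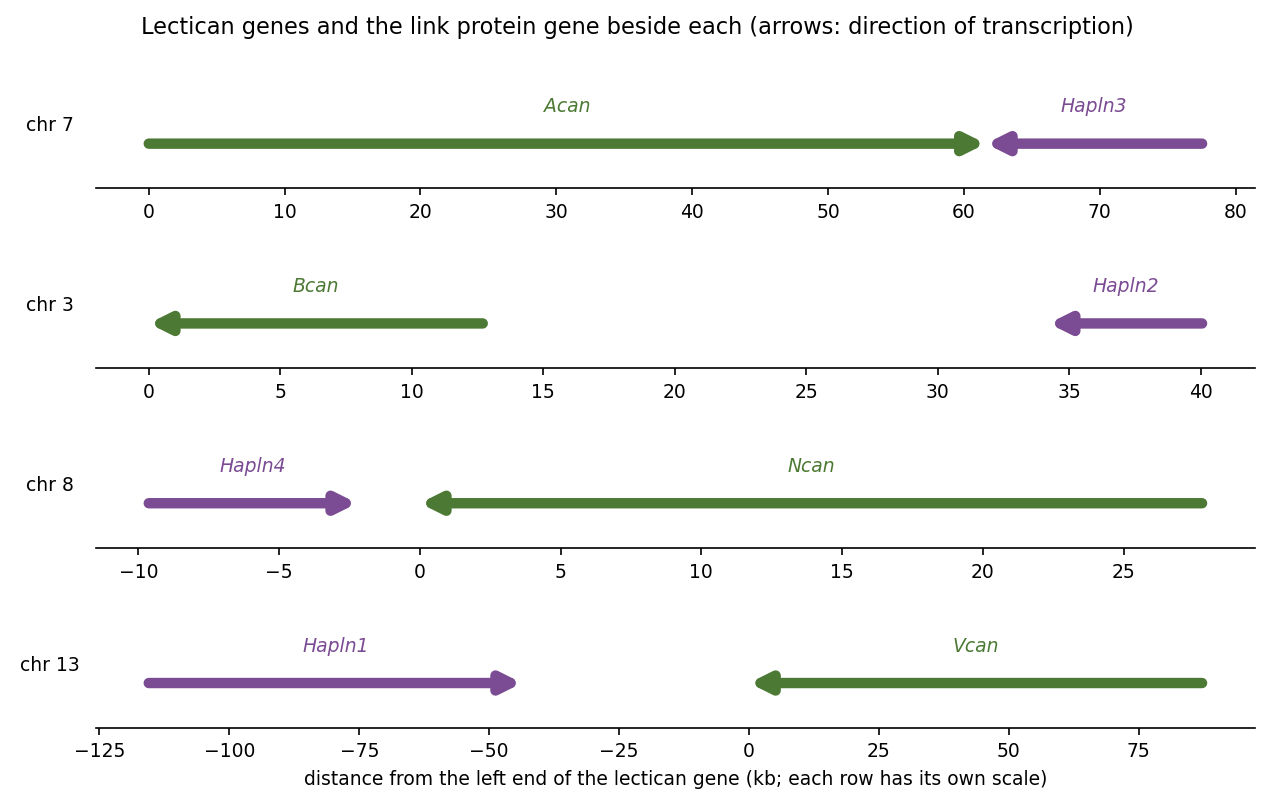
The 4 lectican genes (green) and the link protein gene beside each (purple), drawn to scale in kb from the left end of the lectican gene, with arrows in the direction of transcription and a separate scale for each row. Acan and Hapln3 are 2 bases apart, Ncan and Hapln4 2.2 kb, Bcan and Hapln2 21.5 kb, and Vcan and Hapln1 43.7 kb.

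The 10 genes differed widely in level. Compared per kilobase of annotated exon (CPM per kb, mean of all 7 libraries), Bcan was highest at 82.3, followed by Ncan at 43.3, Ptprz1 at 25.1, Tnr at 23.5, Hapln4 at 19.1, Hapln2 at 8.18, Hapln1 at 4.29, Vcan at 2.69, Acan at 0.605 and Tnc at 0.582. The glial lectican Bcan thus exceeded Acan, the lectican most used to mark nets by antibody, 136-fold. Bcan lay above Ncan and Ncan above Ptprz1 in all 7 libraries, with no overlap of their ranges. Ptprz1 and Tnr, Tnr and Hapln4, Hapln2 and Hapln1, Hapln1 and Vcan, and Acan and Tnc were neighbours whose ranges over the libraries overlapped, and Acan was above Tnc in 4 of 7 libraries. Dividing by the longest transcript in place of all annotated exon put Ptprz1 (44.3) just above Ncan (43.3) and Tnc (0.636) above Acan (0.614) and left the other places as they were. Bcan was at 106.5 by that measure, so its fold over Acan depends on the length used. The table counts genes, so the splice forms of Vcan (8 protein-coding transcripts annotated), Tnr (4), Tnc (4) and Ptprz1 (3), among them the secreted and the membrane form of Ptprz1, are pooled in these values.

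The libraries also differed in how steady each gene was. The highest library exceeded the lowest 1.14-fold for Ptprz1 and 1.2-fold for Bcan, but 1.89-fold for Hapln1 and 1.97-fold for Hapln2, in CPM per kb. Bcan, Ncan, Tnr and Ptprz1 had between 4821 and 7424 counts in each library, which leaves a counting error of 1.25% to 1.39%, well under their spread of 4.18% to 10.6% (coefficient of variation within a group). Acan had 48 to 102 counts and Tnc 56 to 109, and counting error alone gives about 11.4% for Acan and 11% for Tnc with TSP1, beside observed spreads of 19.4% and 21.6%. With PBS, counting error gives 10.8% for Acan and 11.3% for Tnc, beside observed spreads of 10.7% and 21.5%, so that Acan varied no more than counting error among the PBS libraries.

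**Figure D2:**
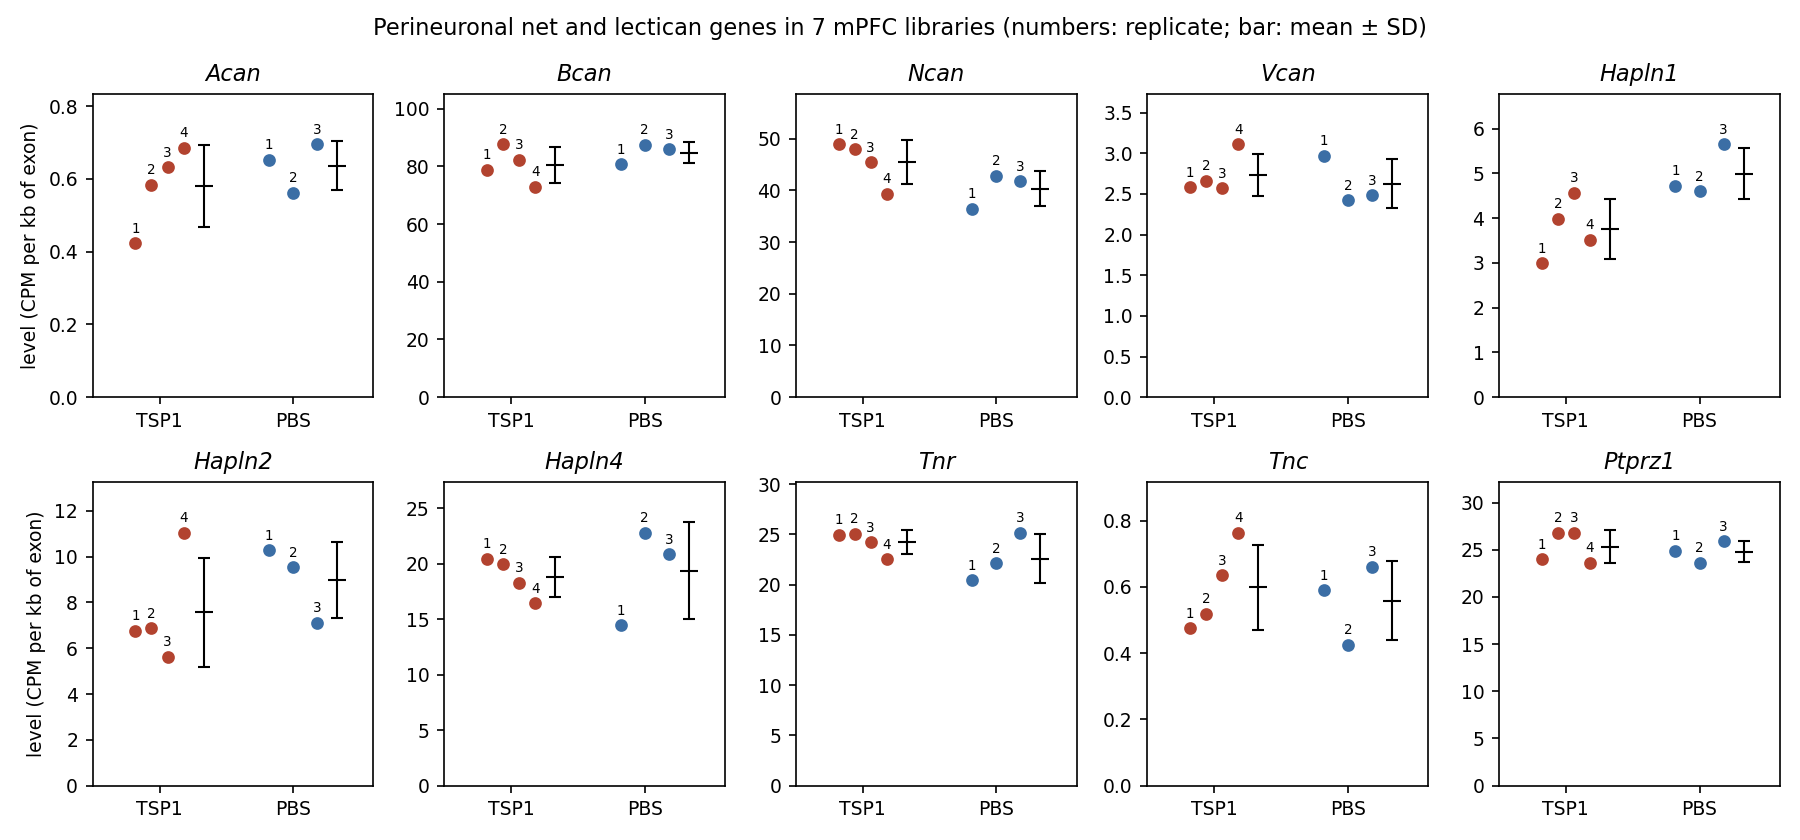
Level of each of the 10 genes in CPM per kb of exon (y axis, from 0, a scale of its own in each panel) in the 4 TSP1 and 3 PBS libraries; points are libraries with their replicate number, and the bar beside them is the mean with its SD. Only in the Hapln1 panel are all TSP1 points (2.99 to 4.57) below all PBS points (4.60 to 5.66).

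None of the 10 genes passed the adjustment over all genes when TSP1 was compared with PBS. By edgeR's quasi-likelihood test with Benjamini-Hochberg adjustment, 0 of 17211 genes (0%) had an adjusted p under 0.05, and the smallest was 0.0536. DESeq2 called 87 genes (0.541% of those it gave an adjusted p) and limma-voom 0, and none of the 10 was among the 87. At an unadjusted p under 0.05, edgeR had 1661 genes (9.65%), 937 of them lower with TSP1 (5.44%), and 1 of the 10 members, Hapln1, was among those. The groups did not overlap at 1 of the 10 members, again Hapln1, which was lower with TSP1, where 10.1% of all genes did not overlap (4.83% higher and 5.26% lower with TSP1). With all libraries both counts are close to the background, but they depend on single libraries. Without TSP1 replicate 4, 3 of 10 members (Ncan, Hapln1 and Hapln2) had an unadjusted p under 0.05, beside 9.74% of the genes tested, and the groups did not overlap at the same 3, beside 15.3%. Without PBS replicate 1 the counts were 2 (Hapln1 and Hapln4, beside 8.55%) and 3 (Vcan, Hapln1 and Hapln4, beside 19.3%), and without PBS replicate 3 they were 2 and 2 (Hapln1 and Tnr, beside 6.71% and 16.6%). Without PBS replicate 2, Ncan and Hapln1 had an unadjusted p under 0.05 (beside 7.98%). None had an adjusted p under 0.05 in any of these fits. The fitted log2 fold changes of the 10 were above 0 for 5 and below 0 for 5, beside 51.1% of all genes above 0 and 48.9% below, with a median of -0.01, beside a median of 0.00 over all genes tested. As a description of the whole set, the sum of the 10 genes was 1373 to 1572 CPM with TSP1 and 1370 to 1521 CPM with PBS.

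**Figure D3:**
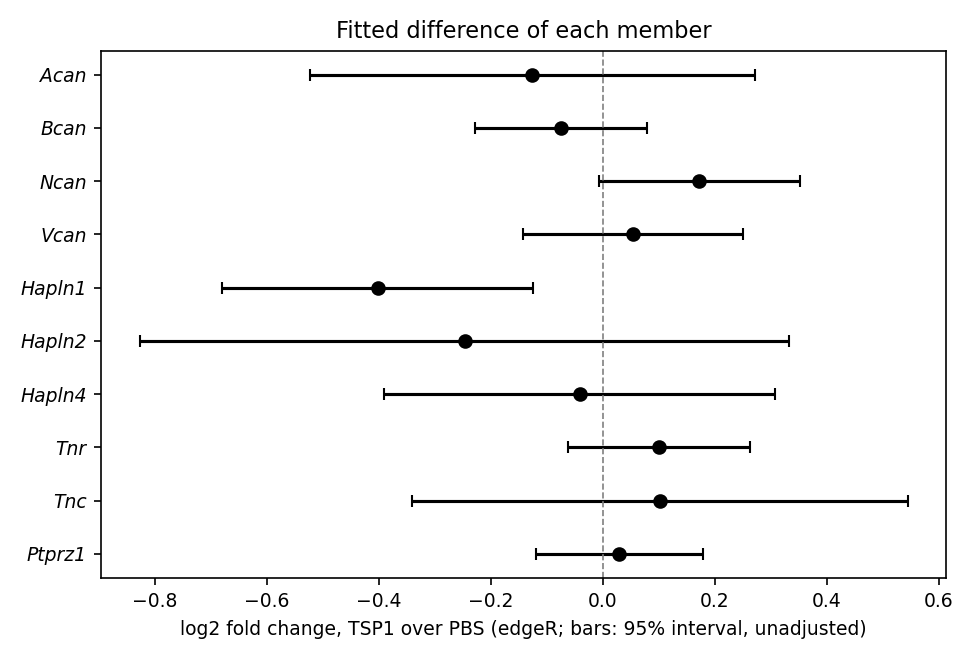
Fitted log2 fold change of each gene, TSP1 over PBS (x axis), from edgeR, with its 95% interval, unadjusted for the number of genes tested. Hapln1 alone has an interval that leaves out 0, from -0.68 to -0.12, and the intervals of Bcan and Ptprz1 are the narrowest.

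Among the lecticans, Bcan and Ncan made up nearly all of the transcripts and the ratio between them did not overlap between the groups. Bcan, made by astrocytes and oligodendrocyte precursors, had 78.8, 87.8, 82.4 and 73.0 CPM per kb in TSP1 replicates 1 to 4, against 80.8, 87.6 and 86.0 in PBS replicates 1 to 3. Its groups overlapped, and the log2 fold change was -0.08 (SE 0.07, edgeR adjusted p = 0.783), with a 95% interval of 0.854-fold to 1.06-fold. Ncan, which neurons and astrocytes make and which is more abundant in the developing brain, had 49.0, 48.0, 45.5 and 39.4 CPM per kb with TSP1, against 36.5, 42.8 and 41.8 with PBS. TSP1 replicates 1 to 3 were above every PBS library, and TSP1 replicate 4 lay within the PBS range. The log2 fold change of Ncan was 0.17 (SE 0.08, edgeR unadjusted p = 0.0581, adjusted p = 0.538), and it was 0.24 (adjusted p = 0.329) with TSP1 replicate 4 left out and 0.10 (adjusted p = 0.791) with PBS replicate 1 left out.

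The ratio of Bcan to Ncan, both per kb of exon, was 1.61, 1.83, 1.81 and 1.85 with TSP1, against 2.22, 2.05 and 2.06 with PBS. Every TSP1 library was therefore below every PBS library, and the ratio averaged 1.78 ± 0.112 over the TSP1 libraries (SD, n = 4) and 2.11 ± 0.0953 over the PBS libraries (SD, n = 3). Of the summed level of the 4 lecticans, Bcan made up 60.3% to 63.1% with TSP1 and 65.7% to 66.9% with PBS. Ncan made up 33.9% to 37.4% with TSP1 and 30.2% to 32.1% with PBS. Vcan accounted for 2.13% ± 0.366 of the sum in TSP1 libraries (SD, n = 4) and for 2.06% ± 0.348 in PBS libraries (SD, n = 3), and Acan for 0.454% ± 0.112 with TSP1 and 0.498% ± 0.0661 with PBS. The difference of the ratio, TSP1 minus PBS, was -0.33 with all libraries and between -0.36 and -0.28 when each was left out in turn. The ratio was not computed with length and GC trends removed. In that fit the log2 fold change was -0.0154 for Bcan and 0.1657 for Ncan, beside -0.075 and 0.1723 in the main fit. The ratio was singled out after its values were seen, as 1 of 6 among the 45 ratios between members that did not overlap, and the other 5 all contain Hapln1, so it is given as a description with no test. The share of ratios that do not overlap was not computed over other pairs of genes. Whether 6 of 45 is unusual is therefore not known. The astrocyte, oligodendrocyte precursor, microglia and endothelial marker means given above did not overlap between the groups either, and their part in the ratio was not tested.

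**Figure D4:**
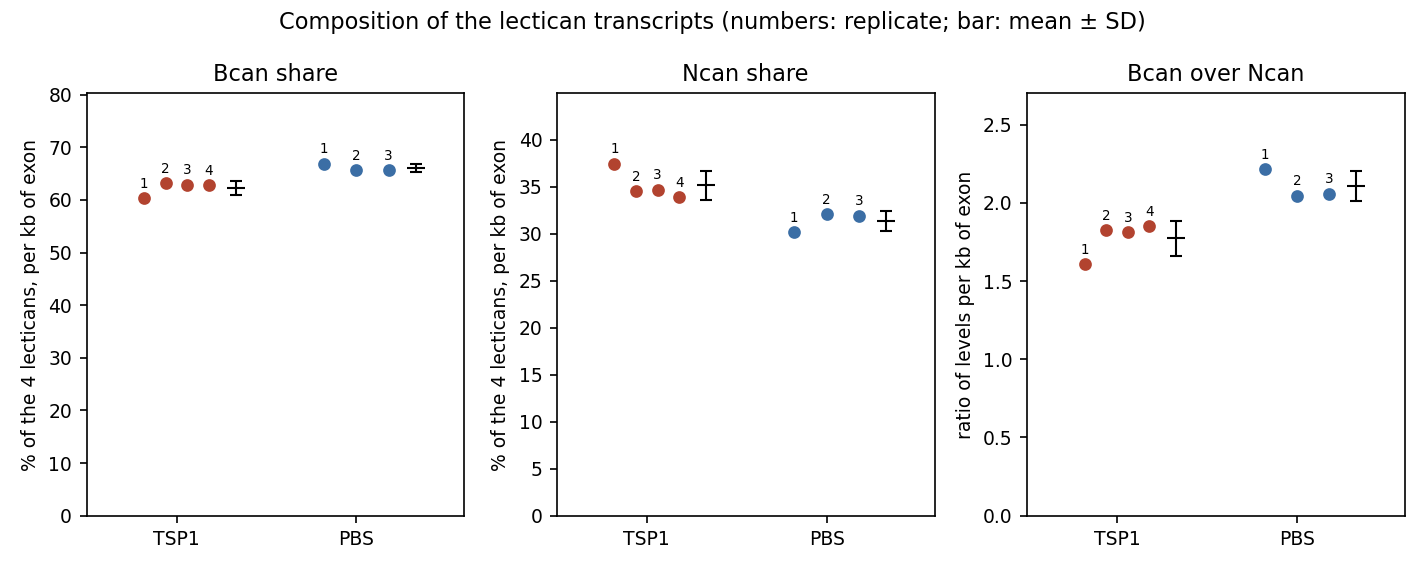
Share of Bcan and of Ncan in the summed level of the 4 lecticans (left and middle, percent, CPM per kb of exon) and the ratio of Bcan to Ncan (right) in each library, with replicate numbers, group means and SD, and y axes from 0. The TSP1 libraries lie at ratios of 1.61 to 1.85 and the PBS libraries at 2.05 to 2.22.

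Vcan and Acan, the scarcer lecticans, did not separate the groups. Vcan, a lectican of oligodendrocyte precursors and of the matrix around nodes of Ranvier in the adult, had 2.58, 2.66, 2.57 and 3.11 CPM per kb with TSP1, against 2.97, 2.42 and 2.48 with PBS. TSP1 replicate 4 and PBS replicate 1 were the highest, and the same libraries had the highest means of the myelin list (0.84 and 0.33). The precursor list differed. Its mean was highest in PBS replicate 1 (0.11), but TSP1 replicate 4 (0.04) was below every PBS library. PBS replicate 3, where Vcan was among the lowest, had a precursor mean of 0.09. The part of either list in the Vcan values was not tested. The log2 fold change of Vcan was 0.05 (SE 0.09, edgeR adjusted p = 0.902, 95% interval -0.14 to 0.25), and it was -0.01 with TSP1 replicate 4 and 0.15 with PBS replicate 1 left out. Acan, the lectican of mature nets around parvalbumin neurons, had 0.424, 0.584, 0.632 and 0.686 CPM per kb with TSP1, against 0.652, 0.562 and 0.696 with PBS. TSP1 replicate 1 was the lowest, with 48 counts, and the other TSP1 libraries lay within the range of PBS. The log2 fold change of Acan was -0.13 (SE 0.19, edgeR adjusted p = 0.88), and its 95% interval, from 0.696-fold to 1.21-fold, spans differences that were not detectable at this depth and spread. Leaving out TSP1 replicate 1 brought it to -0.01 and leaving out TSP1 replicate 4 to -0.21.

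Pvalb itself, the gene of parvalbumin, was named here after its values were seen. It had 15.4, 12.5, 13.1 and 14.4 CPM with TSP1, against 14.3, 18.7 and 21.3 CPM with PBS (-0.38 in log2 fold change, SE 0.13, adjusted p = 0.365 by edgeR). PBS replicate 1 lay within the TSP1 range. The list of 12 genes taken as parvalbumin interneuron markers had 7 fitted values above 0 and 5 below, with a median of 0.03. At an unadjusted p under 0.05 it had 1 gene (Pvalb), beside 9.65% of all genes tested. Its means ran from -0.10 to 0.21 with TSP1 and from -0.07 to 0.11 with PBS, and TSP1 replicate 4 was the highest. Gad1, Gad2, Slc32a1 and Tac1, which are not particular to parvalbumin neurons, were highest in that library (244, 133, 59.5 and 22.1 CPM). Syt2 was also highest there, and the other genes of the list, Pvalb among them, were not. The median and means of the list therefore do not describe parvalbumin neurons alone. TSP1 replicate 1 had the lowest Acan and the highest Pvalb of the TSP1 group.

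Of the link proteins, Hapln1 was the member with the smallest p. Hapln1, which neurons make and without which nets are attenuated in mice, had 268, 437, 491 and 381 counts in TSP1 replicates 1 to 4, against 584, 459 and 546 in PBS replicates 1 to 3. Scaled to library size and length, this was 2.99, 3.98, 4.57 and 3.52 CPM per kb with TSP1, against 4.73, 4.60 and 5.66 with PBS. The highest TSP1 library (replicate 3) was just under the lowest PBS library (replicate 2). In CPM, Hapln1 averaged 22.2 ± 3.95 over the TSP1 libraries (SD, n = 4) and 29.5 ± 3.40 over the PBS libraries (SD, n = 3), and its log2 fold change was -0.40 (SE 0.13, edgeR unadjusted p = 0.00825, adjusted p = 0.344, and DESeq2 adjusted p = 0.241). Its p ranked 413 among the 17211 genes. The log2 fold change was -0.30 without PBS replicate 3, -0.31 without TSP1 replicate 1, -0.37 without TSP1 replicate 4 and -0.51 without TSP1 replicate 3. The astrocyte marker means were lowest in TSP1 replicates 1 and 4 (-0.24 and -0.20), as Hapln1 was, and highest in PBS replicate 3 (0.17), as Hapln1 was. The other marker lists that were lower with TSP1 ordered the libraries otherwise. PBS replicate 3 had the lowest microglia (0.09) and endothelial (0.04) means of the PBS group. In the TSP1 group, replicate 1 had the highest endothelial mean (-0.002) and replicate 4 the highest precursor mean (0.04). Microglia means were lowest in TSP1 replicates 4 and 1 (-0.34 and -0.23), as Hapln1 was. The part of any of these lists in the Hapln1 values was not tested.

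Hapln2 varied most of the 10 genes. Hapln2, which mature oligodendrocytes make and which sits at nodes of Ranvier, had 6.76, 6.88, 5.62 and 11.1 CPM per kb with TSP1, against 10.3, 9.55 and 7.12 with PBS. TSP1 replicate 4 was the highest of the 7 libraries and the other 3 TSP1 libraries were below every PBS library. The log2 fold change was -0.25 (SE 0.25, edgeR adjusted p = 0.805, 95% interval -0.83 to 0.33) with all libraries. It was -0.49 (adjusted p = 0.259) with TSP1 replicate 4 left out, -0.38 with PBS replicate 3 left out, -0.13 with TSP1 replicate 3 left out and -0.14 with PBS replicate 1 left out. The myelin list, which does not hold Hapln2, had means of -0.52, -0.54, -0.16 and 0.84 with TSP1 and of 0.33, 0.05 and 0.00 with PBS. TSP1 replicate 4 and PBS replicate 1 were thus the highest in both, while TSP1 replicate 3 was lowest in Hapln2 and not in the myelin list. The part of myelin content in the Hapln2 values was not tested. Bcan, the neighbour of Hapln2 on chromosome 3, was lowest in TSP1 replicate 4, where Hapln2 was highest.

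Hapln4, which neurons make and which in mice helps to hold brevican at perisomatic inhibitory synapses, had 20.5, 20.0, 18.3 and 16.5 CPM per kb with TSP1, against 14.5, 22.8 and 20.8 with PBS. The PBS group held both the lowest library (replicate 1) and the highest (replicate 2). The log2 fold change was -0.04 (SE 0.15, edgeR adjusted p = 0.959, 95% interval -0.39 to 0.31), and it turned above 0 when TSP1 replicate 4 (0.02), PBS replicate 2 (0.10) or PBS replicate 3 (0.02) was left out. Leaving out PBS replicate 1, its lowest library, brought it to -0.22. Its chromosomal neighbour Ncan was lowest in PBS replicate 1 as well, and so was Tnr, which lies on another chromosome. The ratio of Ncan to Hapln4 per kb was 2.39, 2.40, 2.48 and 2.39 with TSP1, against 2.52, 1.88 and 2.00 with PBS. The TSP1 libraries were close together and the PBS libraries lay on both sides of them. Hapln3, the fourth gene of the family and the neighbour of Acan, was at 1.76 ± 0.441 CPM in TSP1 libraries (SD, n = 4) and at 1.71 ± 0.128 CPM in PBS libraries (SD, n = 3).

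The tenascins and Ptprz1 had groups that overlapped, and none had an unadjusted p under 0.05 with all libraries. Tnr, which oligodendrocyte lineage cells and some interneurons make and which cross-links lectican tails, ran from 22.5 to 25.1 CPM per kb with TSP1 and from 20.4 to 25.2 with PBS, and its log2 fold change was 0.10 (SE 0.08, edgeR adjusted p = 0.718, 95% interval -0.06 to 0.26). It was 0.03 with PBS replicate 1 left out and 0.19 (unadjusted p = 0.0404 and adjusted p = 0.738 by edgeR) with PBS replicate 3 left out. Tnc, the tenascin of developing and reactive tissue, had 0.475, 0.519, 0.635 and 0.764 CPM per kb with TSP1, against 0.590, 0.426 and 0.661 with PBS. Its log2 fold change was 0.10 (SE 0.21, edgeR adjusted p = 0.92, 95% interval -0.34 to 0.54) and turned to -0.03 with TSP1 replicate 4, the highest library, left out, and to -0.05 with PBS replicate 2, the lowest, left out. Tnr exceeded Tnc 29.5-fold to 52.6-fold with TSP1 and 34.6-fold to 52-fold with PBS. Ptprz1, a receptor for pleiotrophin in astrocytes and precursor cells, ran from 23.6 to 26.8 CPM per kb with TSP1 and from 23.6 to 25.9 with PBS. Its log2 fold change was 0.03 (SE 0.07, edgeR adjusted p = 0.935), and the 95% interval of 0.92-fold to 1.13-fold was the narrowest of the 10.

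**Figure D5:**
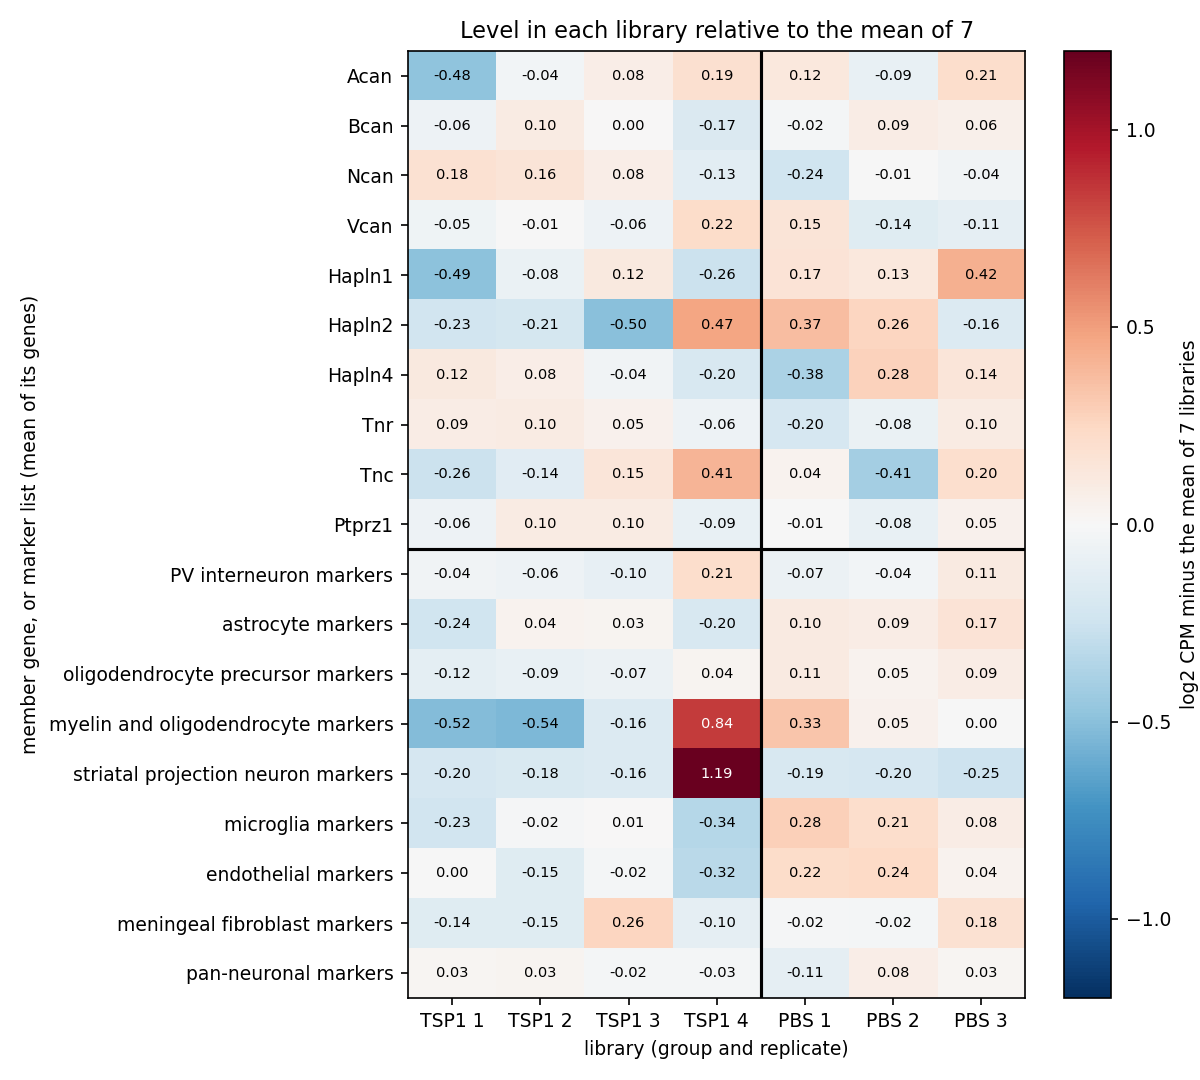
Level in each library relative to the average of the 7 (log2 CPM, colour and printed value) for the 10 genes and, below the line, for the means of 9 cell class marker lists; columns are the 4 TSP1 and 3 PBS libraries. TSP1 replicate 4 stands out in the striatal (1.19) and myelin (0.84) lists and has the highest Hapln2, Vcan and Tnc, and the Ptprz1 values run only from -0.09 to 0.10.

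The genes whose profile over the 7 libraries was most like that of a member were sought for Hapln2, which varied most, and Hapln1, which had the smallest p, among 14360 tested genes with a name. Likeness was the root-mean-square difference between profiles of log2 CPM relative to the average of the 7 libraries. For Hapln2 the nearest were Tnni1 (0.11), Sdhaf1 (0.13), Sox10 (0.14), Gab1 (0.14) and Dnajb3 (0.14), where Hapln2 itself had a root mean square of 0.34 and the median gene a difference of 0.36. Sox10 is a transcription factor of the oligodendrocyte lineage and is also in the precursor list. For Hapln1 they included Romo1 (0.04), Dmrta2 (0.07), Sft2d2 (0.09) and Glns-ps1 (0.10), with 0.28 for Hapln1 itself and 0.31 for the median gene. These likenesses describe the same 7 libraries in which the members were measured, with their differences in marker content, and carry no test.

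The wider pathway was followed in 5 lists, and none of their genes passed the adjustment over all genes. In the hyaluronan list (synthesis, uptake and binding), 13 of 17 genes were tested, 8 with fitted values above 0 and 5 below, with a median of 0.06. At an unadjusted p under 0.05, 3 were higher and 1 lower with TSP1, where the background was 4.21% higher and 5.44% lower. The scaffold's own synthases were low. Has1, a hyaluronan synthase, had 2.31, 2.31, 1.98 and 2.18 CPM with TSP1, against 1.195, 1.54 and 1.83 CPM with PBS (a log2 fold change of 0.54 with an SE of 0.24; edgeR adjusted p = 0.496). Its groups did not overlap. Has3 had 3.83 ± 0.791 CPM with TSP1 and 3.32 ± 0.427 CPM with PBS, and Has2, with 45 counts over the 7 libraries, did not pass the filter; both are given, whatever their values, as the other synthases. Cemip2, a cell surface protein linked to hyaluronan breakdown, had 22.6, 21.2, 25.1 and 25.7 CPM with TSP1, against 19.5, 18.8 and 19.3 CPM with PBS (0.30 in log2 fold change, SE 0.09, adjusted p = 0.31 by edgeR). Every TSP1 library was above every PBS library. Hmmr, a hyaluronan-binding protein of dividing cells, had 1.36 ± 0.401 CPM with TSP1 and 0.668 ± 0.0444 CPM with PBS (edgeR adjusted p = 0.349). Over the 7 libraries Hmmr had 132 counts and Has1 235, fewer than Acan or Tnc. Counting error therefore limits Hmmr and Has1 more than it does Acan and Tnc. The scavenger receptor gene Stab1, which macrophages and microglia express, had 25.5 ± 3.45 CPM with TSP1 and 31.5 ± 2.15 CPM with PBS (edgeR adjusted p = 0.358).

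The enzymes that build and sulfate chondroitin chains were near the background. Of 21 tested genes 11 had fitted values above 0 and 10 below (median 0.00). At an unadjusted p under 0.05 there was 1 in each direction, beside 4.21% of all genes tested higher and 5.44% lower. Chsy3, a chondroitin synthase, had 17.6, 13.1, 13.3 and 16.0 CPM with TSP1, against 11.0, 13.1 and 11.4 CPM with PBS (a log2 fold change of 0.34 with an SE of 0.12; edgeR adjusted p = 0.401). The lowest TSP1 library and the highest PBS library nearly met. B3gat3, which adds the last sugar of the linker that every such chain needs, had 119 ± 10.6 CPM with TSP1 and 138 ± 8.79 CPM with PBS (-0.22 in log2 fold change, SE 0.08, adjusted p = 0.368 by edgeR). Of 23 tested proteases and inhibitors, 9 had fitted values above 0 and 14 below (median -0.03). At an unadjusted p under 0.05, 2 were lower, beside 5.44% of all genes tested. These were Timp4, an inhibitor of metalloproteinases, with 29.2 ± 2.95 CPM with TSP1 and 35.02 ± 3.40 CPM with PBS (edgeR adjusted p = 0.384), and Adamts9, a protease that cleaves aggrecan and versican, with 2.82 ± 0.714 CPM with TSP1 and 4.03 ± 0.623 CPM with PBS (edgeR adjusted p = 0.481). Adamts4, a lectican-cleaving protease named after its values were seen, had 23.9, 22.1, 25.4 and 50.2 CPM with TSP1, against 31.4, 33.2 and 28.2 CPM with PBS. TSP1 replicate 4 was again the highest library, and the other TSP1 libraries were below every PBS library.

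Receptors and binding partners of net proteins were likewise divided, with 14 of 27 tested genes above 0 and 13 below (median 0.02). At an unadjusted p under 0.05 there were 2 in each direction, beside 4.21% of all genes tested higher and 5.44% lower. L1cam, a neuronal adhesion molecule that binds neurocan, had 239, 207, 203 and 201 CPM with TSP1, against 178, 190 and 172 CPM with PBS (a log2 fold change of 0.24 with an SE of 0.07; edgeR adjusted p = 0.313). Its groups did not overlap. Sema3a, a guidance protein that collects in nets, had 20.0 ± 2.32 CPM with TSP1 and 16.8 ± 1.82 CPM with PBS (edgeR adjusted p = 0.48). Among those lower with TSP1 by the same unadjusted measure was Nptx2, a pentraxin of excitatory synapses on parvalbumin neurons, with 51.1 ± 5.97 CPM with TSP1 and 58.9 ± 1.38 CPM with PBS (edgeR adjusted p = 0.473). Among 19 other chondroitin sulfate proteoglycans, 12 had fitted values above 0 and 7 below (median 0.04). At an unadjusted p under 0.05, 1 was higher and 3 were lower, beside the same 4.21% and 5.44% of all genes tested. The higher was Lum (2.23 ± 0.363 CPM with TSP1 and 1.40 ± 0.205 CPM with PBS, edgeR adjusted p = 0.413), a small proteoglycan of connective tissue. The lower were Srgn, Dcn and Cd74, with log2 fold changes of -0.44 (SE 0.18), -0.41 (SE 0.18) and -2.62 (SE 0.99) and edgeR adjusted p of 0.47, 0.496 and 0.499. Cd74, the invariant chain of antigen presentation, had 1.65, 1.51, 2.25 and 1.31 CPM with TSP1, against 2.92, 25.4 and 2.93 CPM with PBS, so that PBS replicate 2 set its mean. Dcn and Lum are also in the meningeal fibroblast list, whose means ran from -0.15 to 0.26 with TSP1 and from -0.02 to 0.18 with PBS.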

How the data were processed

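The authors deposited whole-number read counts per gene, not normalized, which were used as given. GRCm38 and mm10 are the builds listed in the submitters' processing notes; for the aligner, counter and annotation, the sources used here give nothing. Every listed gene has at least 5 counts over the 7 libraries, and 0 columns belonged to other samples. Per the labels' protocols, 1.3 µg of total RNA entered each library. Columns were matched to samples through the number that opens the description field. Identifiers were matched to GENCODE M21 without their version (25375 of 25467; all 10 members), which gave symbols, coordinates counted from 1, and exon length.

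The test was edgeR 4.0.16 in R 4.3.3 (filterByExpr, TMM, robust glmQLFit and glmQLFTest on group alone, 7 libraries, two-sided, Benjamini-Hochberg over 17211 genes). SE is the absolute log2 fold change divided by the root of the F statistic. CPM are TMM-scaled, log2 CPM use a prior count of 2, and intervals are 95% from the same fit. P-values rest on the spread among libraries of a group. The scripts were tested on simulated counts. Replicates differed by more than sampling noise (chi-square 3.98 to 13.4 per degree of freedom). The members and lists were chosen with earlier results of these data known. Named were all members, then in each pathway list up to 4 genes at an unadjusted p under 0.05; some items under these rules are not reported here. Alternatives were RLE factors, DESeq2 1.42.0 (no adjusted p for 9398 genes), limma 3.58.1 voom, 2 other filters, a replicate block, removal of length and GC trends (splines with 4 degrees of freedom), and leaving out each library. Ratios between members and length by longest transcript were added after the data were seen.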

Additional observations from a re-analysis of the deposited data

Results flagged for a closer look

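Dixon's test for a sample far from the others was applied to 34 sets of values in the 4 TSP1 libraries, and 8 stood out (the PBS group of 3 is too small for it). Chance gives about 1 in 20 for a single set, but the sets share genes, such as Vcan and Vcan's share, or Bcan's share and the Bcan to Ncan ratio. The 8 are therefore not separate events, and their number cannot be set against that rate. TSP1 replicate 4 was the far library in Vcan, at 45 CPM (gap over range 0.831), in Vcan's share of the lecticans, at 2.68% (0.922), and in the striatal list mean, at 1.19 (0.974). TSP1 replicate 1 was the far library in Bcan's share of the lecticans, at 60.3% (0.897), in the ratio of Bcan to Ncan, at 1.61 (0.831), and in the mean of the matrix protease list, at -0.12 (0.851). TSP1 replicate 3 was far in the ratio of Ncan to Hapln4, at 2.48 (0.866), within a TSP1 range that is narrow, and in the meningeal fibroblast list mean, at 0.26 (0.891). Without TSP1 replicate 1 the difference of the Bcan to Ncan ratio was -0.28, and without TSP1 replicate 4 it was -0.36.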

How the results depend on the processing

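Over 138 values of the 10 members under the alternatives, 127 kept their sign and 0 had an adjusted p under 0.05 (lowest 0.241, Hapln1 in DESeq2). Hapln1 stayed between -0.51 and -0.30 in log2 fold change and Ncan between 0.10 and 0.24. The signs that turned belonged to Vcan, Hapln4, Tnc and Ptprz1, whose fold changes in the main fit were smaller than their SE. For Tnc these were 0.10 and 0.21. With the replicate block the signs of Vcan (-0.0079), Hapln4 (0.0375) and Tnc (-0.0319) turned. With length and GC trends removed those of Vcan (-0.0297) and Ptprz1 (-0.0482) did. Without TSP1 replicate 4 those of Vcan, Hapln4 and Tnc turned. Without PBS replicate 2 those of Hapln4 and Tnc did, and without PBS replicate 3 that of Hapln4. Leaving out single libraries moved Acan between -0.21 and -0.01, Bcan between -0.12 and -0.03, Hapln2 between -0.49 and -0.13, Tnr between 0.03 and 0.19, Ptprz1 between 0.0002 and 0.06, Vcan between -0.0121 and 0.1538, Hapln4 between -0.2164 and 0.0997, and Tnc between -0.0503 and 0.2348. The number of genes past the adjustment, 0 in edgeR, was 87 in DESeq2, 19 with no low-count filter and 0 to 9 when single libraries were left out (9 without PBS replicate 3); the cause was not tested. Ncan and Hapln1 both had an unadjusted p under 0.05 in DESeq2 (0.04997 for Ncan, beside 9% of genes). They also did in edgeR with no low-count filter (0.0402 for Ncan, beside 8.18%). With the replicate block 3 members (Ncan, Hapln1 and Hapln2) had an unadjusted p under 0.05, in place of 1, beside 7.94%. Hapln2 had the smallest of these (edgeR unadjusted p = 0.000839, adjusted p = 0.32). TSP1 replicate 4, which has no partner, carries no weight in the block. The number past the adjustment was 0 with the block, with 1366 genes at an unadjusted p under 0.05 in place of 1661. The replicate numbers are not said to pair the mice. Same-numbered libraries correlated at -0.26, -0.03 and 0.01 in their deviations from the group means. With deviations centred within such small groups, these correlations cannot show whether mice were paired. Acan and Tnc did not pass the filter of at least 5 CPM in 3 libraries and have no value there. Among the 10 members, depth limits Acan and Tnc most.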
